A study of Homo sapiens with 15 samples.

Results

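The genes described here encode the machinery that rescues stalled ribosomes and clears their unfinished products, measured by ribosome profiling in HEK293, a human embryonic kidney line. The 10 genes, PELO, HBS1L, GTPBP1, GTPBP2, ASCC2, ASCC3, NEMF, LTN1, TCF25 and ANKZF1, were chosen by name from the 55773 gene names of the deposited table. There were 15 libraries, 3 in each of 5 groups. Doxycycline-induced Flag/HA-ZC3H7A was overexpressed in a line of its own, Flag/HA-ZC3H7B in another, and the Flag/HA control carried the tags without either protein. All 3 of these groups received doxycycline at 1 µg/mL, with an induction of 24 h given for the tagged proteins, and the labels also describe growth of Flp-In T-REx 293 cells. A further group is labelled ZC3H7A/B-DD (double depletion), with a ZC3H7A knockout and a short hairpin against ZC3H7B. Its counterpart, Parental, is wild type with a control hairpin. Puromycin at 5 µg/mL kept the hairpins in both, and their lysis buffer held cycloheximide at 100 µg/mL. Neither drug is given for the Flag/HA lines. The labels do not say whether any line is a single clone. They call the Flag/HA replicates independent and do not say so of the other 6 libraries, where p-values measure only the spread between those samples. In the Flag/HA groups each construct was in 1 line. The p-values there measure the spread between replicates of a line, not between lines.

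When a ribosome stops within an mRNA or runs into the end of one, Pelota (PELO) and the GTPase HBS1L enter its empty A site and, with ABCE1, split it into subunits. Collided ribosomes are instead taken apart by the ASC-1 complex, in which ASCC3 is the helicase and ASCC2 the ubiquitin-binding subunit. The large subunit that is left still holds a peptidyl-tRNA: NEMF binds it and extends the chain, the ubiquitin ligase LTN1 (Listerin) marks the chain for degradation, TCF25 assists the ubiquitin transfer, and ANKZF1 frees the chain from the tRNA. GTPBP1 and GTPBP2 are GTPases related to HBS1L, and loss of Gtpbp2 in mice that also carry a defective arginine tRNA causes ribosome stalling and neurodegeneration.

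Values are normalized counts of footprints per gene. A footprint count rises with mRNA level and with ribosome load per mRNA, and these data alone do not separate them, nor a change in all cells from a change in part of them. Total reads were 24703005 to 25922138 with Flag/HA-ZC3H7A, 22661812 to 25939425 with Flag/HA-ZC3H7B, 28261810 to 29515572 in the Flag/HA control, 20777204 to 42680589 in ZC3H7A/B-DD and 32955833 to 39064072 in Parental. The tagged genes were strongly raised: ZC3H7A averaged 38044 with Flag/HA-ZC3H7A, against 6547 in the control, and ZC3H7B averaged 27885 with Flag/HA-ZC3H7B, against 2152. In each line the other gene differed from the control too: ZC3H7A averaged 4762 with Flag/HA-ZC3H7B, and ZC3H7B averaged 2820 with Flag/HA-ZC3H7A. The libraries labelled ZC3H7A/B-DD did not show fewer footprints of the depleted genes: ZC3H7A stood at 7116, 1890 and 5066, against 1885, 1820 and 2311 in Parental, and ZC3H7B at 3948, 2399 and 2969, against 2479, 2321 and 2609. For neither did the difference pass the test (log2 1.03 and 0.30, adjusted p = 0.0850 and 0.198, limma). ZC3H7A was called higher in ZC3H7A/B-DD, however, with no filter on low values (adjusted p = 0.0174), with edgeR (0.0489), with all 15 libraries in 1 fit (0.00831) and without ZC3H7A/B-DD replicate 2 (log2 1.59, adjusted p = 0.00129), and ZC3H7B without that replicate (log2 0.47, adjusted p = 0.0460). The table does not show which part of a gene a footprint lies in. Parental replicate 3 stood apart, at 64.6 and 87.9 times counting noise from the other Parental libraries (chi-square per degree of freedom), which differed from each other by 8.72. By the same measure the ZC3H7A/B-DD libraries differed from each other by 18.3 to 25.5, and libraries within the Flag/HA groups by 1.65 to 6.06. All 5 HEK293 markers had reads: over the 5 groups VIM averaged 17869 to 41677, LIN28B 695 to 2004, PAX2 118 to 223, NEFL 31.0 to 294 and NEFM 22.0 to 26.3. Of the blood cell markers PTPRC stayed at or below 7.92 and CD34 at or below 24.8, but HBB averaged 126 to 687. Of the fibroblast markers DCN stayed at or below 3.28 and LUM at or below 23.8, but COL1A1 averaged 80.0 to 343. HBB and COL1A1 thus stood above NEFM in every group. The hepatocyte markers ALB and APOA1 stayed at or below 2.47 and 9.93.

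The 10 coding sequences fell into contrasting kinds by the last base of their codons, a property that the series title (codon-dependent regulation) points to. NEMF and HBS1L each had 66.8% of codons ending in A or T, ASCC3 65.2% and LTN1 64.7%, all at or above percentile 92.9 of coding genes. ANKZF1 had 46.2%. The other members had 31.25% (PELO), 30.6% (GTPBP2 and ASCC2), 28.1% (GTPBP1) and 27.1% (TCF25), below the median of 39.4% over all coding genes. The stretches below show this for the 4 A/T-ending members, all of which had fewer footprints in both overexpressing lines, and for 3 members with few such codons, each of which passed the test in 1 of those lines and not in the other. Each is the first 30 whole codons of the gene's longest coding exon, leaving out the start codon where the exon holds it (PELO), read 5′ to 3′ on the coding strand from GENCODE 29 (GRCh38), in lower case with each A or T that ends a codon in capitals.

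HBS1L: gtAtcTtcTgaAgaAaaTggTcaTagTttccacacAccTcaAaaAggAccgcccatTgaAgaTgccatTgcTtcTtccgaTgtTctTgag
ASCC3: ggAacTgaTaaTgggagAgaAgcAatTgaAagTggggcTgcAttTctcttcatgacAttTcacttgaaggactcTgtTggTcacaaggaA
LTN1: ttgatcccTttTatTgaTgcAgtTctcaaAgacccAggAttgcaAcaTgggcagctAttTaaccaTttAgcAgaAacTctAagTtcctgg
NEMF: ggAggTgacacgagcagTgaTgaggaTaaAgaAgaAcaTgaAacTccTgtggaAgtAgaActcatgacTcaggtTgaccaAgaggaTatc
PELO: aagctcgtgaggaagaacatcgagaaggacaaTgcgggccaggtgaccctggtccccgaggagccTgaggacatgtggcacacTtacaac
ASCC2: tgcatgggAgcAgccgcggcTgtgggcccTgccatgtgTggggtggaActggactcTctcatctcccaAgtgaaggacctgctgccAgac
GTPBP2: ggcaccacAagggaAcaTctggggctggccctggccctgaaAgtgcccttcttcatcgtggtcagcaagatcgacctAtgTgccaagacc

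The HBS1L stretch lies on the minus strand at chr6:134997566-134997655, in coding exon 6 of 18, and 23 of its 30 codons end in A or T. The ASCC3 stretch is on the minus strand at chr6:100848616-100848705 (coding exon 3 of 41) with 19 such codons, and the LTN1 stretch on the minus strand at chr21:28967090-28967179 (coding exon 10 of 30) with 20. The NEMF stretch is on the minus strand at chr14:49800605-49800694 (coding exon 23 of 33) and also has 19. By contrast PELO has 3, on the plus strand at chr5:52800398-52800487 (coding exon 1 of 2), ASCC2 has 9, on the minus strand at chr22:29802119-29802208 (coding exon 13 of 19), and GTPBP2 has 6, on the minus strand at chr6:43624638-43624727 (coding exon 7 of 12). GTPBP1, which also passed the test in 1 overexpressing line only, is not shown, and its stretch has 11. A stretch need not match its whole coding sequence. The HBS1L stretch is at 76.7% and the PELO stretch at 10.0%, beside 66.8% and 31.25% over the gene. The ASCC3 and NEMF stretches are at 63.3%, beside 65.2% and 66.8%.

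With Flag/HA-ZC3H7A, footprints of LTN1, HBS1L, ASCC3, GTPBP1, ASCC2 and NEMF fell and those of PELO rose against the Flag/HA control. With Flag/HA-ZC3H7B, LTN1, HBS1L, ASCC3 and NEMF fell and GTPBP2 rose. Thus 7 of 10 members passed an adjusted p of 0.05 in the first comparison (limma, Benjamini-Hochberg over 15599 genes), where 57.5% of all tested genes did, and 5 of 10 in the second, where 54.3% did. By direction, 6 of 10 fell with ZC3H7A against 28.2% of genes, and 4 of 10 with ZC3H7B against 25.4%. The share called in either direction was near that of genes in general and is no result about the members as a group. The larger share of falls was not tested. Groups that did not overlap were seen for 7 of 10 members with ZC3H7A and 5 of 10 with ZC3H7B, beside 63.9% and 61.1% of all genes. Their median log2 change was -0.18 with ZC3H7A and -0.05 with ZC3H7B, beside 0.02 and 0.04 over all genes. Both comparisons use the same 3 control libraries. The summed blood-cell markers (PTPRC, CD34 and HBB, all 3 with reads) moved with the groups, at 201 to 268 with ZC3H7A, 320 to 417 with ZC3H7B and 603 to 791 in the control, nearly all from HBB. PTPRC itself averaged 0.931, 0.489 and 2.48 in these groups, near 0. The summed fibroblast markers overlapped between them, at 92.6 to 113, 111 to 126 and 90.5 to 123. The summed HEK293 markers, mostly VIM, also moved, at 25775 to 27682, 23252 to 26292 and 19090 to 20168 in the same order. The part of these transcripts in the results was not tested.

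**Figure D1:**
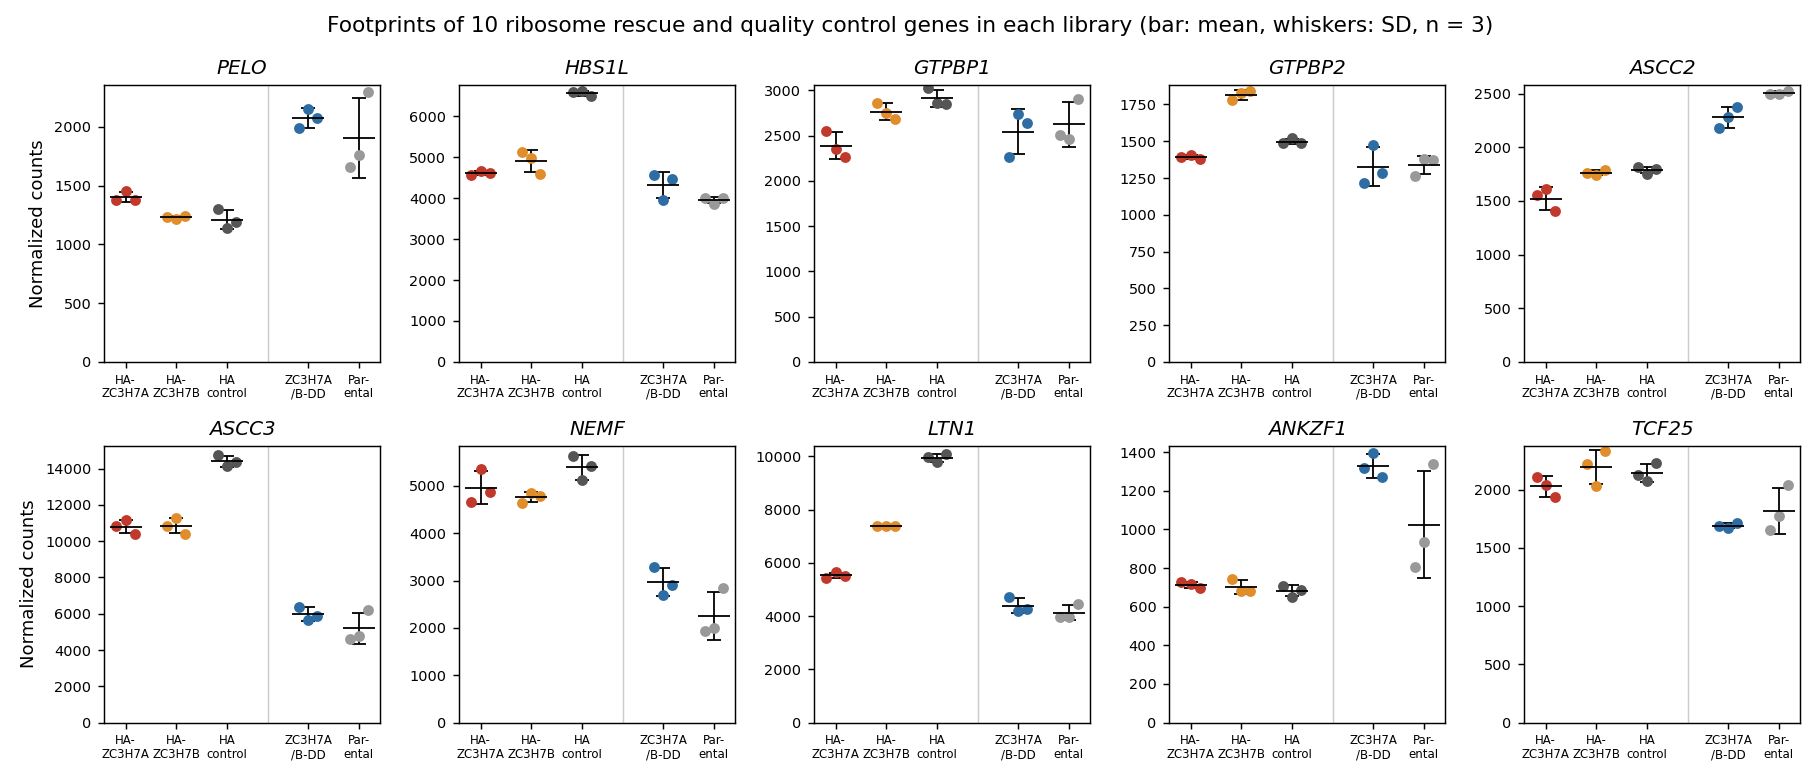
Normalized footprint counts of the 10 genes (vertical axes, from 0) in each of the 15 libraries, by group along the horizontal axes; points are libraries, bars means and whiskers SD (n = 3). LTN1, HBS1L and ASCC3 lie lower in every library of both overexpressing lines than in any control library.

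The Pelota pair moved apart. HBS1L had 4577, 4668 and 4614 normalized counts with Flag/HA-ZC3H7A and 5120, 4995 and 4600 with Flag/HA-ZC3H7B, against 6585, 6618 and 6489 in the Flag/HA control. Every library of both lines was below every control library. The log2 change was -0.51 (SE 0.045, adjusted p = 1.45e-09, limma) with ZC3H7A and -0.42 (SE 0.045, adjusted p = 3.20e-08) with ZC3H7B, or 29.6% and 25.3% fewer footprints. HBS1L also encodes, through an alternative transcript, the SKI7-like protein that links the SKI complex to the exosome, and counts per gene do not tell the products apart.

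PELO had 1381, 1453 and 1375 with Flag/HA-ZC3H7A, 1233, 1217 and 1239 with Flag/HA-ZC3H7B and 1298, 1140 and 1194 in the control. The ZC3H7A libraries all lay above the others, by a small margin, and those of the ZC3H7B line lay within the control range. PELO rose with ZC3H7A by 0.21 (log2, SE 0.058, adjusted p = 0.00304, limma) and its value with ZC3H7B was 0.02 (95% interval -0.10 to 0.14, adjusted p = 0.746). The call with ZC3H7A was lost, at an adjusted p of 0.0732, when all 15 libraries were fitted together. PELO (chr5:52787940-52804046, plus strand) lies within ITGA1, an integrin gene on the same strand. They share 475 exon bases, but none of the PELO coding bases is in an ITGA1 exon. ITGA1 averaged 1676 with ZC3H7A and 833.5 with ZC3H7B, against 2086 in the control. What ITGA1 footprints add to the PELO counts was not tested.

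Of the related GTPases, GTPBP1 lies at chr22:38705723-38738299 (plus strand) and shares 680 exon bases, none of its coding bases, with SUN2 on the opposite strand. It had 2552, 2354 and 2261 with Flag/HA-ZC3H7A and 2865, 2748 and 2680 with Flag/HA-ZC3H7B, against 3022, 2864 and 2854 in the control. All ZC3H7A libraries were below the control, whereas those with ZC3H7B overlapped it. GTPBP1 fell by 0.29 with ZC3H7A (log2, SE 0.051, adjusted p = 4.43e-05, limma), and its value with ZC3H7B was -0.08 (95% interval -0.18 to 0.03).

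GTPBP2 had 1390, 1408 and 1382 with Flag/HA-ZC3H7A and 1777, 1826 and 1844 with Flag/HA-ZC3H7B, against 1487, 1519 and 1486 in the control. The groups did not overlap: the ZC3H7B line was highest, the control between and the ZC3H7A line lowest. It rose with ZC3H7B by 0.28 (log2, SE 0.050, adjusted p = 5.42e-05, limma), or 21.2%. The value with ZC3H7A was -0.10 and missed the threshold (adjusted p = 0.0813).

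ASCC3 and ASCC2 of the ASC-1 complex both fell with ZC3H7A, and of these 2 members ASCC3 passed the test with ZC3H7B. The complex also holds ASCC1 and TRIP4, counted below among the splitting and recycling partners, where ASCC1 was at -0.51 with ZC3H7A and -0.31 with ZC3H7B (log2) and TRIP4 at -0.26 and -0.08. ASCC3 had 10817, 11151 and 10415 with Flag/HA-ZC3H7A and 10864, 11261 and 10421 with Flag/HA-ZC3H7B, against 14744, 14146 and 14363 in the control. The overexpressing lines were nearly alike and wholly below the control, with log2 changes of -0.42 (SE 0.044, adjusted p = 2.19e-08, limma) and -0.41 (SE 0.044, adjusted p = 3.26e-08). ASCC2 had 1552, 1608 and 1406 with ZC3H7A and 1764, 1740 and 1785 with ZC3H7B, against 1813, 1755 and 1798 in the control. Only the ZC3H7A libraries separated from the control; ASCC2 fell there by 0.23 (log2, SE 0.055, adjusted p = 0.000765, limma) and was at -0.02 with ZC3H7B (95% interval -0.13 to 0.09).

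Among the genes that act on the split large subunit, LTN1 had the largest change of the 10. Its counts were 5436, 5646 and 5505 with Flag/HA-ZC3H7A and 7367, 7400 and 7391 with Flag/HA-ZC3H7B, against 9964, 9771 and 10075 in the control. The 3 groups were widely separated, with the ZC3H7A line lowest and the ZC3H7B line between it and the control. The log2 change was -0.85 (SE 0.040, adjusted p = 4.61e-14, limma) with ZC3H7A and -0.43 (SE 0.040, adjusted p = 4.52e-09) with ZC3H7B, or 44.4% and 25.7% fewer footprints.

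NEMF, which recruits LTN1, moved little. It had 4664, 5351 and 4866 with Flag/HA-ZC3H7A and 4641, 4854 and 4776 with Flag/HA-ZC3H7B, against 5634, 5112 and 5417 in the control. ZC3H7A replicate 2 lay above the lowest control library, while the ZC3H7B libraries were all below the control. The log2 change was -0.12 (SE 0.051, adjusted p = 0.0472, limma) with ZC3H7A and -0.18 (SE 0.051, adjusted p = 0.00477) with ZC3H7B. The first call ended when ZC3H7A replicate 1 or 3, ZC3H7B replicate 1 or 2, or control replicate 1 or 3 was left out (adjusted p 0.0522 to 0.247). The first call also ended with no filter on low values (adjusted p = 0.0905, limma). Both calls ended under quantile scaling (-0.02 with ZC3H7A and -0.07 with ZC3H7B) and with all 15 libraries in 1 fit (adjusted p = 0.429 and 0.231).

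The last exons of NEMF share 3010 bases, 300 of them coding for NEMF, with KLHDC2 on the opposite strand, and the sources do not say whether counting used strand. KLHDC2, a substrate receptor of a ubiquitin ligase, averaged 1880 with ZC3H7A and 1867 with ZC3H7B, against 2640 in the control (log2 -0.49 and -0.50). What KLHDC2 footprints add to the NEMF counts was not tested.

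TCF25 and ANKZF1 did not pass the test in either line. TCF25 had 2106, 2041 and 1934 with Flag/HA-ZC3H7A and 2217, 2034 and 2328 with Flag/HA-ZC3H7B, against 2128, 2077 and 2225 in the control. ANKZF1 had 725.7, 715.4 and 697.7, and 743.5, 678.7 and 683.5, in the same 2 lines, against 708.9, 652.0 and 685.1. For both genes the 3 groups overlapped. TCF25 lies at chr16:89873570-89913627 (plus strand) and shares 547 exon bases, none of its coding bases, with MC1R on the same strand. Exons of AC092143.3, also on that strand, hold 164 of the TCF25 coding bases. ANKZF1 lies at chr2:219229757-219236669 (plus strand) and shares 64 exon bases, none of its coding bases, with GLB1L on the opposite strand. The 95% intervals of the log2 change ran over -0.19 to 0.03 and -0.08 to 0.15 for TCF25, and -0.08 to 0.21 and -0.10 to 0.18 for ANKZF1.

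**Figure D2:**
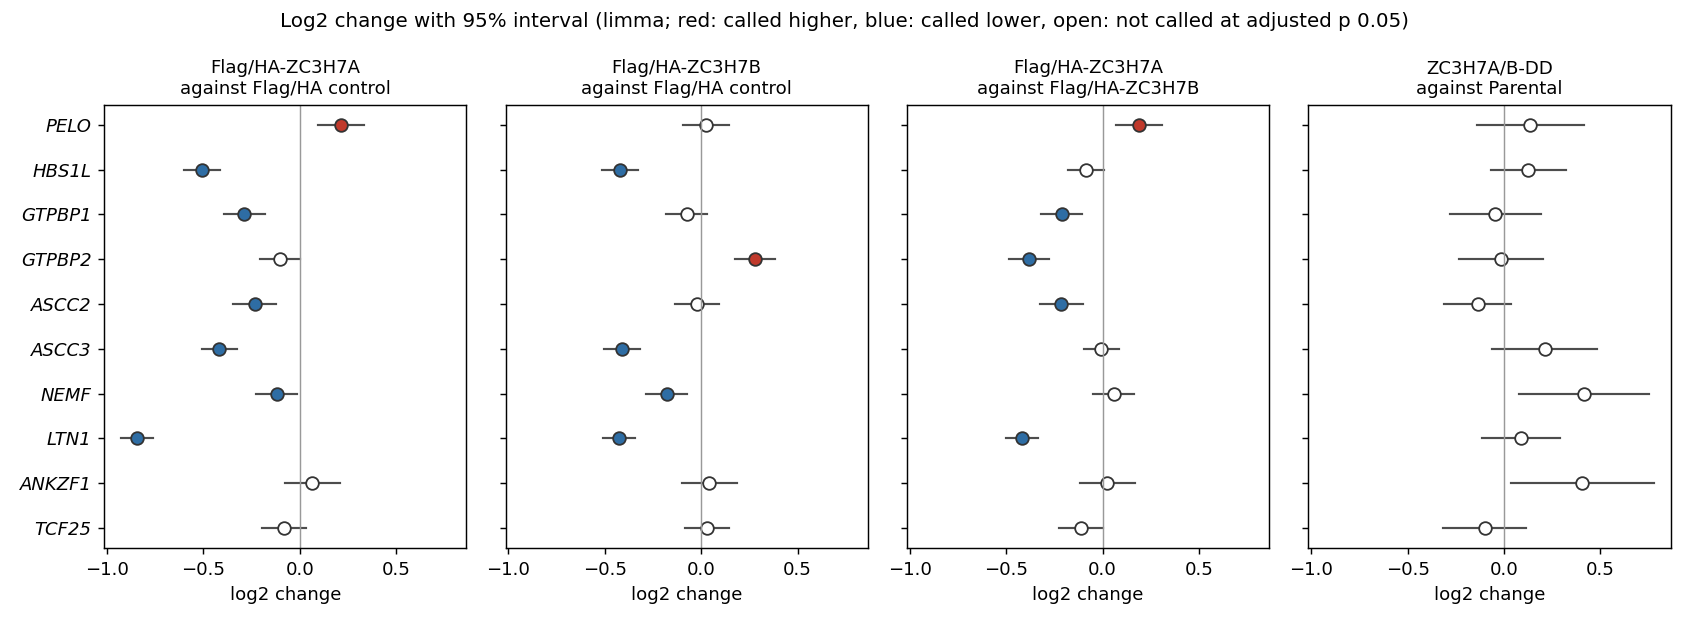
Log2 change (horizontal axes) of the 10 genes (rows) in 4 comparisons, with 95% intervals from limma; red points were called higher, blue lower and open points were not called at an adjusted p of 0.05. LTN1 at -0.85 with Flag/HA-ZC3H7A is the largest change, and no gene is called in ZC3H7A/B-DD against Parental.

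The lines were also set against each other directly, which shows where the overexpressing lines differed. Each protein was expressed in a line of its own, so protein and line cannot be told apart. With Flag/HA-ZC3H7A, PELO was higher than with Flag/HA-ZC3H7B (log2 0.19, adjusted p = 0.0126, limma), and LTN1 (-0.42, adjusted p = 1.22e-08), GTPBP2 (-0.38, adjusted p = 1.47e-06), ASCC2 (-0.21, adjusted p = 0.00318) and GTPBP1 (-0.21, adjusted p = 0.00211) were lower. That is 5 of 10 members, where 36.6% of all genes were called, and the same 5 had groups that did not overlap, as 43.7% of genes did. For LTN1 the ZC3H7A libraries held 25.1% fewer footprints than the ZC3H7B libraries. ASCC3 differed by -0.01 (95% interval -0.10 to 0.08), NEMF by 0.06 (-0.05 to 0.16) and HBS1L by -0.08 (-0.18 to 0.01), so that differences beyond about these sizes fall outside the intervals. PELO lost its call without ZC3H7A replicate 2 (adjusted p = 0.0539) and, like GTPBP1, when all 15 libraries were fitted together (adjusted p = 0.168 and 0.0671). HBS1L gained a call under quantile scaling (-0.10, adjusted p = 0.0312), which made 6 members called, and without ZC3H7B replicate 3 (adjusted p = 0.0130), and TCF25 without ZC3H7B replicate 2 (adjusted p = 0.0335).

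The values were also set beside those of genes of like codon ending. Tested genes with a coding sequence were cut into 10 bins by the percentage of codons ending in A or T, and the median log2 change in bin 10, which holds HBS1L, ASCC3, LTN1 and NEMF, was -0.18 in both lines. In bin 1, with the fewest such codons, it was 0.28 with Flag/HA-ZC3H7A and 0.25 with Flag/HA-ZC3H7B. LTN1 with ZC3H7A stood 0.66 below the median of its bin and HBS1L 0.32 below, both outside the interquartile range (-0.42 to 0.05). ASCC3 with ZC3H7A was at the edge of that range, and NEMF lay 0.06 above the median. ASCC2 and GTPBP1, with few A/T-ending codons, were also below the interquartile range of their bins, by 0.32 and 0.42 from the medians of 0.09 and 0.13. With ZC3H7B all 10 members were inside the range of their bin, although LTN1, ASCC3 and HBS1L lay 0.25, 0.23 and 0.24 below its median. These are descriptions, with no test.

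**Figure D3:**
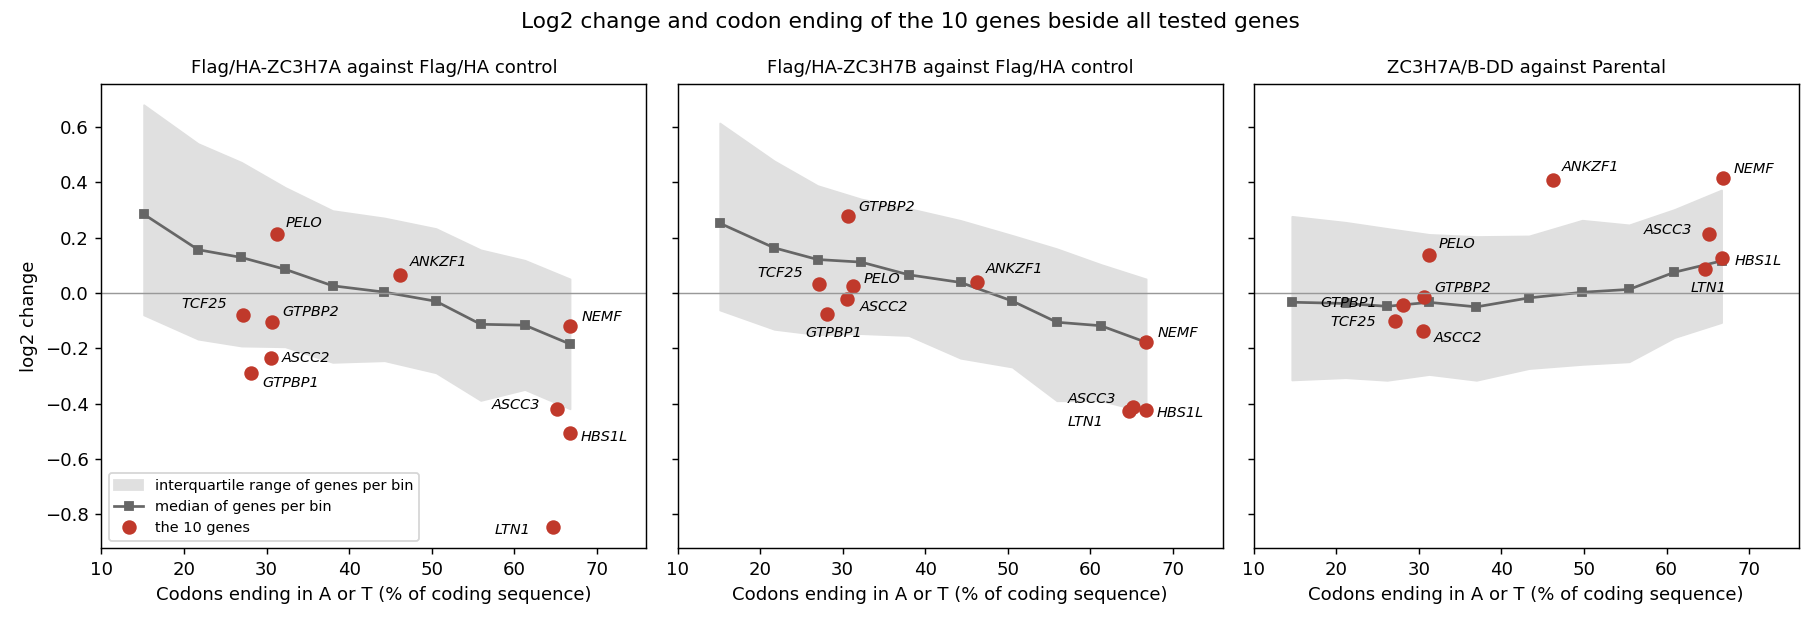
Log2 change (vertical axis) against the percentage of codons ending in A or T (horizontal axis) for the 10 genes (red), with medians (line) and interquartile ranges (grey) of all tested genes in 10 bins. Taken bin by bin, LTN1, HBS1L, ASCC2 and GTPBP1 are below the interquartile range with Flag/HA-ZC3H7A, and no gene is outside it with Flag/HA-ZC3H7B. The grey edge is drawn from bin to bin, so genes near it (ASCC3 with Flag/HA-ZC3H7A, LTN1 with Flag/HA-ZC3H7B) can appear just below it.

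Because partners moved unequally, the ratio of their levels per kilobase of coding sequence differed between groups. PELO over HBS1L was 0.535, 0.552 and 0.529 with Flag/HA-ZC3H7A and 0.427, 0.432 and 0.478 with Flag/HA-ZC3H7B, against 0.350, 0.306 and 0.327 in the control, with no overlap between the groups. LTN1 over NEMF was 0.664 ± 0.034 with ZC3H7A and 0.923 ± 0.019 with ZC3H7B, against 1.10 ± 0.04 in the control (mean ± SD, n = 3). ASCC2 over ASCC3 was 0.409 ± 0.015, 0.473 ± 0.024 and 0.361 ± 0.003, and GTPBP1 over GTPBP2 was 1.54 ± 0.10, 1.37 ± 0.07 and 1.75 ± 0.07, in the same order of groups. These ratios follow from the changes above and were not tested.

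**Figure D4:**
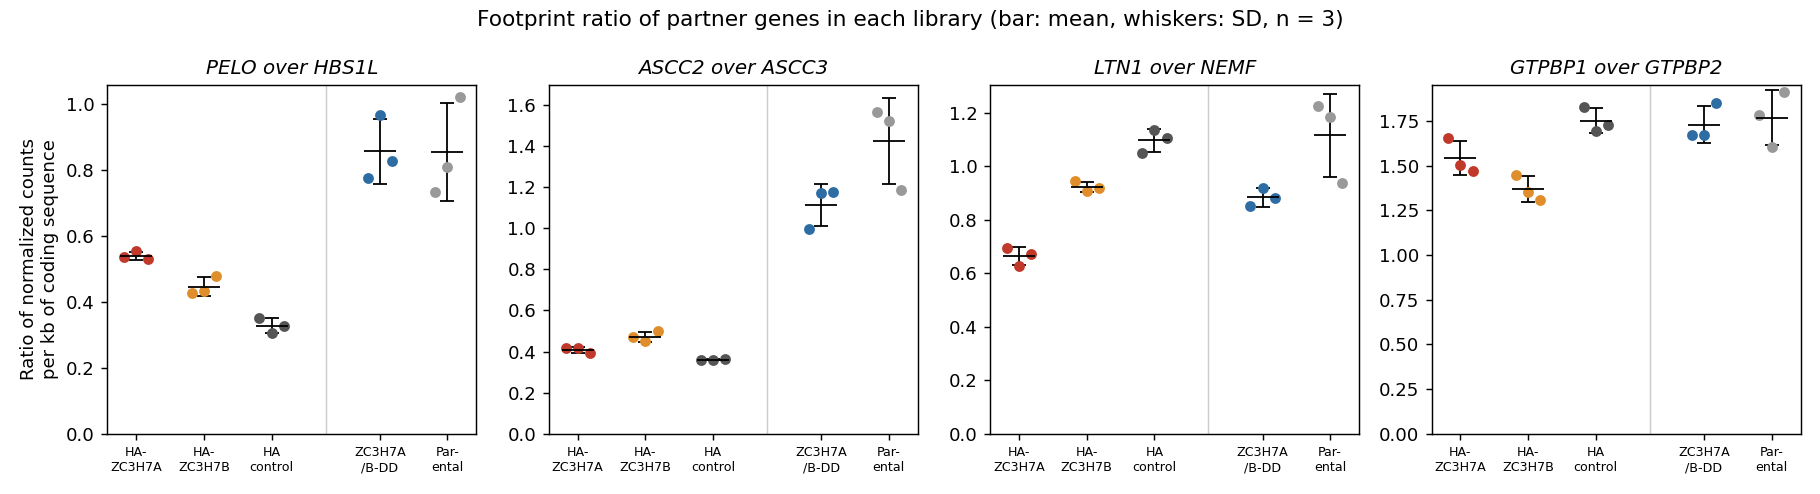
Ratio of normalized counts per kilobase of coding sequence (vertical axes, from 0) for 4 pairs of partner genes in each library, by group; bars are means and whiskers SD (n = 3). PELO over HBS1L is 0.539 with Flag/HA-ZC3H7A, 0.446 with Flag/HA-ZC3H7B and 0.327 in the control on average.

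In level per kilobase of coding sequence, HBS1L had the highest mean of the 10 in every group, and ANKZF1 the lowest. In the control HBS1L stood at 3194, ASCC3 at 2182, LTN1 at 1827, NEMF at 1668 and GTPBP1 at 1449, each separate from the next, then TCF25 (1055) and PELO (1045), which overlapped, then GTPBP2 (828), ASCC2 (786) and ANKZF1 (313). With Flag/HA-ZC3H7A LTN1 stood at 1017, overlapping TCF25 at 998, and PELO (1211) and GTPBP1 (1189) overlapped above it. With Flag/HA-ZC3H7B LTN1 stood at 1358, overlapping GTPBP1 at 1375. In ZC3H7A/B-DD the order was HBS1L (2107), PELO (1791) and GTPBP1 (1267), each separate from the next, then ASCC2 (1003), NEMF (917) and ASCC3 (904), which overlapped, then TCF25 (832), LTN1 (808) and GTPBP2 (733), which overlapped, and ANKZF1 (609). In Parental HBS1L (1926), PELO (1646) and GTPBP1 (1306) overlapped in turn, ASCC2 (1102) stood apart, and TCF25 (896), ASCC3 (787), LTN1 (760), GTPBP2 (739), NEMF (697) and ANKZF1 (470) each overlapped the next.

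Over the 9 Flag/HA libraries the members most alike in log2 level were HBS1L and ASCC3 (Pearson r = 0.976), HBS1L and LTN1 (0.920) and ASCC2 and GTPBP1 (0.897), and the least alike were PELO and LTN1 (-0.795). These libraries share groups and depth, so the correlations are given without a p.

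In the libraries labelled ZC3H7A/B-DD none of the 10 members passed the test against Parental (limma, 17092 genes), where 24.5% of all genes did. NEMF and ANKZF1 had an unadjusted p under 0.05 (limma). The share of all genes at that threshold was not taken, so this is no result about the members as a group. The edgeR and DESeq2 fits also called 0 members, beside 4132 and 4151 of 17092 genes. NEMF had 3293, 2703 and 2895 in ZC3H7A/B-DD, against 1925, 1994 and 2835 in Parental, a log2 change of 0.41 (SE 0.149, adjusted p = 0.0728). ANKZF1 had 1318, 1396 and 1273, against 806.2, 932.1 and 1336, a log2 change of 0.41 (SE 0.164, adjusted p = 0.102). For both genes Parental replicates 1 and 2 were well below the ZC3H7A/B-DD libraries, and Parental replicate 3 lay among them.

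The same library decided PELO and ASCC3. PELO had 1989, 2155 and 2079 in ZC3H7A/B-DD, against 1658, 1760 and 2299 in Parental, and ASCC3 had 6385, 5657 and 5880, against 4629, 4769 and 6196. Without Parental replicate 3, which leaves 5 libraries, ANKZF1 rose by 0.62 (SE 0.095, adjusted p = 0.00123, limma), NEMF by 0.59 (SE 0.095, adjusted p = 0.00143), ASCC3 by 0.34 (SE 0.079, adjusted p = 0.00923) and PELO by 0.28 (SE 0.079, adjusted p = 0.0242). That is 4 of 10, all higher, where 33.1% of genes were called and 15.7% were higher. The overlapping KLHDC2 was higher too, at 2166 against 1731 (log2 0.32, adjusted p = 0.0189 with all 6 libraries, limma), beside the NEMF value. That call was lost with a replicate block (adjusted p = 0.0554) and without ZC3H7A/B-DD replicate 2 (0.0567) or Parental replicate 1 (0.0623) or 2 (0.0788). The summed HEK293 markers stood at 40211 to 44797 in ZC3H7A/B-DD, against 20760 to 29623 in Parental, and LIN28B averaged 695, against 1425; their part in these values was not tested.

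The other 6 members had no call with or without that library. HBS1L stood at 4558, 3965 and 4466 in ZC3H7A/B-DD, against 4015, 3862 and 3997 in Parental, and LTN1 at 4715, 4181 and 4284, against 3964, 3977 and 4463. Both overlapped, with 95% intervals of -0.07 to 0.32 and -0.12 to 0.29, which measure only the spread between these libraries. ASCC2 had 2183, 2281 and 2376, all below the 2493, 2498 and 2526 of Parental, yet its change of -0.14 missed the threshold (adjusted p = 0.228). It was the 1 member of 10 whose groups did not overlap, where 40.8% of genes had such groups. The median of bin 10, with most A/T-ending codons, was 0.12 in this comparison, and NEMF and ANKZF1 were the members above the interquartile range of their bins. The intervals of TCF25 (-0.32 to 0.11), GTPBP1 (-0.28 to 0.19) and GTPBP2 (-0.23 to 0.20) all held 0.

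Around these members, 61 other genes of the pathway were followed in 6 lists, and 60 were tested. With Flag/HA-ZC3H7A 10 rose and 24 fell, with Flag/HA-ZC3H7B 13 rose and 22 fell, against 29.2% and 28.2% of all genes in the first comparison and 28.9% and 25.4% in the second. With all 15 libraries in 1 fit, 5 rose and 17 fell with ZC3H7A, where 3798 of all 18589 tested genes rose and 3549 fell. The ribosome splitting and recycling partners were the list with falls and no rise: 5 of 8 fell with ZC3H7A and 6 of 8 with ZC3H7B, with median log2 changes of -0.31 and -0.32. ABCE1, the ATPase that splits the ribosome after PELO has bound, averaged 5045 with ZC3H7A, against 6845 in the control (log2 -0.44, adjusted p = 1.29e-08, limma). Its log2 change with ZC3H7B was -0.39. MCTS1, which with DENR removes tRNA from the small subunit after splitting, averaged 2228 and 2399 in the 2 lines, against 3613 (log2 -0.70 and -0.59). DENR averaged 4610 with ZC3H7A and 2936 with ZC3H7B, against 4752 in the control. It fell with ZC3H7B by 0.70 and differed between the lines by 0.65 (adjusted p = 1.33e-10, limma).

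Of the 14 collision sensing and signalling genes, 2 rose and 3 fell with ZC3H7A, and 4 rose and 4 fell with ZC3H7B. RNF10, a ligase for small subunit proteins, rose in both (log2 0.40 and 0.30). OTUD3, a deubiquitinase, averaged 3976 with ZC3H7B, against 2743 in the control (log2 0.54, adjusted p = 1.32e-07, limma), and 2730 with ZC3H7A. GCN1 (GCN1L1 in the table), a scaffold that binds collided ribosomes, fell with ZC3H7A (-0.22) and was at -0.05 with ZC3H7B. EIF2AK4, the kinase GCN2 that acts with it, was at -0.13 with ZC3H7A and fell with ZC3H7B (-0.29). In the list of chain extraction and tRNA release, 3 of 9 tested genes rose and 3 fell with ZC3H7A, and 2 rose and 2 fell with ZC3H7B. VCP, the segregase that pulls the marked chain out, rose in both (log2 0.22 and 0.18), calls that were lost with all 15 libraries in 1 fit (adjusted p = 0.447 and 0.537), while RCHY1, a ligase for tailed chains, fell in both (-0.20 and -0.47).

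Among 14 genes for cleavage and 3′ decay of the stalled mRNA, 3 rose and 6 fell with ZC3H7A, and 3 rose and 4 fell with ZC3H7B. N4BP2, related to the endonucleases that cut mRNA at stalls in yeast and worms, had the largest change of all listed genes with ZC3H7B. It averaged 1402 there, against 2971 in the control (log2 -1.08, adjusted p = 3.67e-14, limma), and 2593 with ZC3H7A, and the lines differed by 0.88. TTC37, the scaffold of the SKI complex that feeds mRNA to the exosome, fell in both lines (-0.33 and -0.44), and the exosome subunit EXOSC5 rose in both (0.32 and 0.39). UFMylation, which marks stalled ribosomes at the endoplasmic reticulum, had 1 of 10 genes higher and 6 lower with ZC3H7A, and 2 higher and 5 lower with ZC3H7B. UFL1, its ligase, averaged 5533 and 4610 in the 2 lines, against 8441 in the control (log2 -0.61 and -0.88). The 5 mitochondrial rescue genes had 1 rise and 1 fall with ZC3H7A, and 2 rises and 1 fall with ZC3H7B.

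**Figure D5:**
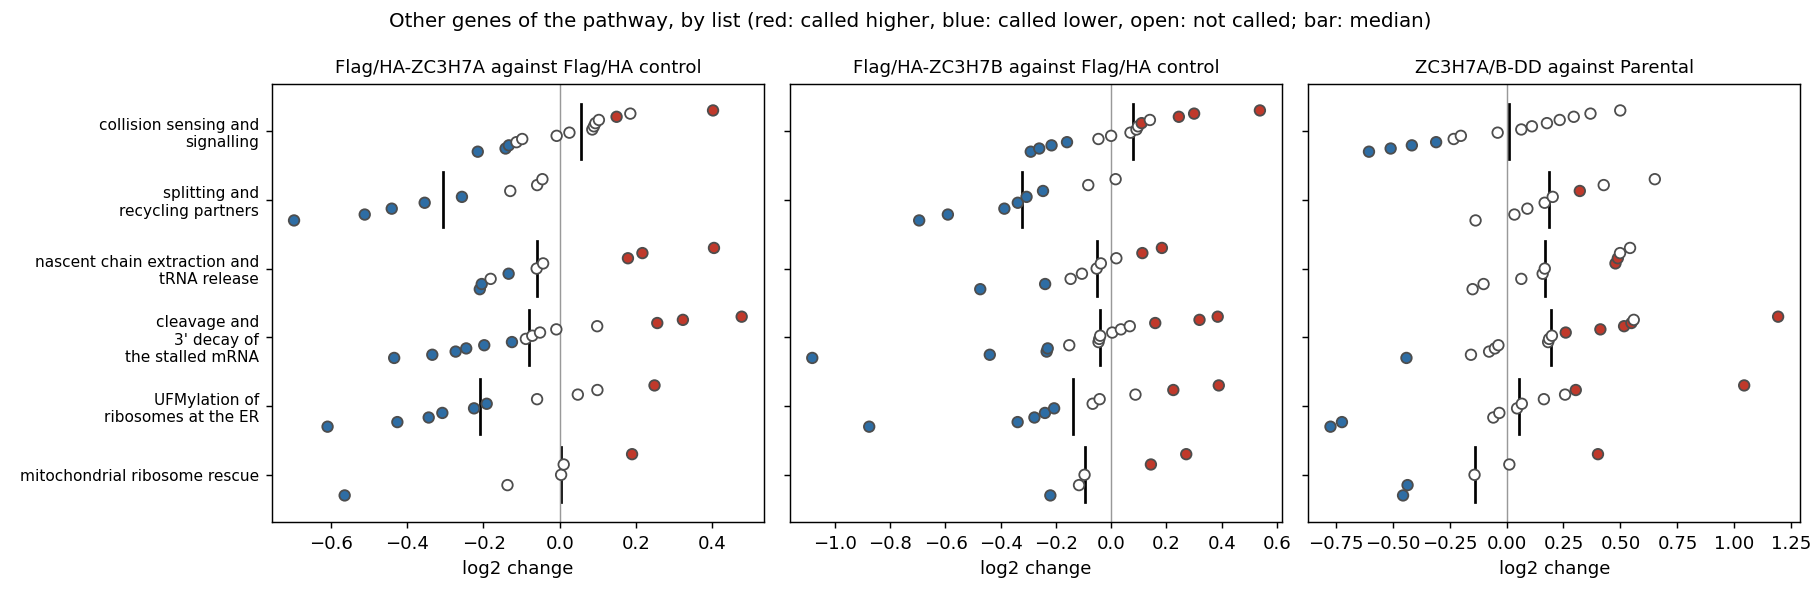
Log2 change (horizontal axes) of each tested pathway gene, by list (rows), in 3 comparisons; red was called higher, blue lower, open not called, and black bars are list medians. The splitting and recycling list has no red point in either overexpressing line.

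These genes too were ordered by codon ending. Of the 31 tested genes with over 50% of codons ending in A or T, 1 rose and 17 fell with Flag/HA-ZC3H7A, and 3 rose and 20 fell with Flag/HA-ZC3H7B. Of the 29 others, 9 rose and 7 fell, and 10 rose and 2 fell. All tested genes divided in the same direction: over 50%, 21.5% rose and 46.4% fell with ZC3H7A, and at or below 50% it was 36.5% and 23.1%. With ZC3H7B, 20.1% rose and 45.4% fell over 50%, and 36.1% and 19.2% at or below 50%. Calls in the lists are thus read beside those of genes of like codon ending, and they are not shown to be particular to the pathway.

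In ZC3H7A/B-DD against Parental 11 of the 60 rose and 9 fell, beside 11.0% and 13.5% of all genes (24.5% of genes were called). Without Parental replicate 3 these were 17 and 11, beside 15.7% and 17.4%. Without Parental replicate 1, and likewise without Parental replicate 2, they were 6 and 5. Of all genes, 1063 rose and 1389 fell without replicate 1 (16752 tested), and 760 and 1135 without replicate 2 (16746 tested). With all 15 libraries in 1 fit 22 of the listed genes rose and 11 fell, beside 2923 and 3300 of 18589 genes. Of the splitting and recycling list, 1 of 8 passed the test, ETF1, the release factor eRF1, higher by 0.32 (log2, adjusted p = 0.0312, limma), and 4 of 8 were higher without Parental replicate 3, with none lower in either case. The ETF1 call was lost with no filter on low values (adjusted p = 0.0548), edgeR (0.0524) and a replicate block (0.0781), and without ZC3H7A/B-DD replicate 1 (0.0919) or 3 (0.101) or Parental replicate 1 (0.102) or 2 (0.127). RNF10 fell (-0.60, adjusted p = 0.00193, limma), as did the UFM1 proteases UFSP2 (-0.72) and UFSP1 (-0.77). ODR4 (C1orf27 in the table), which partners UFSP2, averaged 2077 in ZC3H7A/B-DD, against 1002 in Parental (log2 1.04, adjusted p = 0.000513, limma).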

How the data were processed

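The authors deposited 1 table of normalized counts (a footprint signal per gene name, reads divided by a size factor per library). Reads were recovered as multiples of the smallest step of each library (100% of values whole, with a tolerance of 0.001 reads), which gave the depths. Per the submitters' processing notes, cutadapt, Bowtie, STAR, HTSeq and DESeq2 were used, with hg38 and hg19, whose roles, like the strandedness of counting, no source used here gives. The log2(value + 1) values were tested with limma 3.58.1 (R 4.3.3; trended variance), keeping a gene if 3 libraries or more reached 10, adjusting over all genes, with the 9 Flag/HA libraries in 1 fit and the other 6 in another; all 10 members passed the filter in both. A call is an adjusted p under 0.05. edgeR 4.0.16 and DESeq2 1.42.0 on recovered reads were alternatives. This test was also run on simulated data with known answers. Codon ending was read from the longest GENCODE 29 coding sequence, without start and stop codons; 19097 table names had one. Besides the members, the text names the tagged genes, overlapping genes and up to 2 called genes per direction, list and comparison by smallest p, with the values of those in other comparisons. The members and lists were chosen with earlier results of these data known.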

Additional observations from a re-analysis of the deposited data

How the results depend on the processing

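The count of members called with Flag/HA-ZC3H7A and with Flag/HA-ZC3H7B was 7 and 5. It stayed within 6 to 7 and at 5 when each library was left out in turn. It was 5 and 4 with all 15 libraries in 1 fit, with no member higher with ZC3H7A. With no filter on low values it was 6 and 5, where 8587 and 8164 of 34907 genes were called. Under quantile scaling it was 6 and 4, where 8890 and 8444 of 15599 genes were called. For Flag/HA-ZC3H7A against Flag/HA-ZC3H7B it was 5, ran over 4 to 6 with libraries left out, and was 3 with all 15 in 1 fit. Under quantile scaling the count was 6, where 5988 of 15599 genes were called. For ZC3H7A/B-DD against Parental it was 0, ran over 0 to 4 with libraries left out (4 without Parental replicate 3), and was 2 with all 15 in 1 fit, where that fit shares the spread of the other groups; over all genes the count, 4182, ran over 1895 (without Parental replicate 2) to 5560 (without Parental replicate 3), with 2452 without Parental replicate 1 and 2558 without ZC3H7A/B-DD replicate 3. With all 15 libraries in 1 fit, the genes called of 18589 were 7347 with ZC3H7A, 6904 with ZC3H7B, 3893 between the lines and 6223 for ZC3H7A/B-DD. Replicate numbers did not pair the samples (correlations of same-numbered deviations -0.133 to 0.092). With a replicate block the members called were 7, 5, 5 and 0. In the same order of comparisons the genes called were 9169, 8714 and 6026 of 15599, and 2992 of 17092 for ZC3H7A/B-DD. Direction turned in values near 0, none of them called. With ZC3H7B these were ANKZF1 (-0.0169) and ASCC2 (0.0123) under quantile scaling, PELO under DESeq2 (-0.0053), and with libraries left out ANKZF1 (-0.0010 to 0.0693), TCF25 (-0.0130 to 0.0845) and PELO (-0.0176 to 0.0756). Between the lines ASCC3 was at 0.0149 under TMM, 0.0145 with voom and with edgeR, 0.0041 under DESeq2 and -0.0357 to 0.0202 with libraries left out, KLHDC2 at -0.0100 under quantile scaling and -0.0253 to 0.0352, and ANKZF1 at -5.2e-05 to 0.0656. For ZC3H7A/B-DD, GTPBP2 was at 0.0097 under quantile scaling, and with libraries left out GTPBP2 ran over -0.0947 to 0.0425, GTPBP1 over -0.0995 to 0.0387 and ITGA1 over -0.183 to 0.0131. The cause of these shifts was not tested. Of the members' values under alternatives, 190 of 200 with ZC3H7A, 192 of 200 with ZC3H7B, 187 of 200 between the lines and 157 of 170 for ZC3H7A/B-DD kept direction and side of the threshold. Of those of the called pathway genes first in each list, 371 of 380, 381 of 420, 374 of 380 and 229 of 255 did, the other 9, 39, 6 and 26 losing the call.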
